A study of Homo sapiens with 8 samples.

Results

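The enzymes examined here build, convert and recycle the nucleotides used for DNA and RNA. A list of 31 gene symbols was looked up among the array probe sets that the platform annotation pairs with exactly 1 symbol, and 30 had a value, out of 18404 genes measured in all. The probe set of NME1, a nucleoside diphosphate kinase, carries several symbols, so that gene has no value. RNA came from HepG2, a human liver tumour cell line, in 2 groups of 4 cultures that the design text calls biological replicates. The H2O2 group was exposed to 0.5 mM hydrogen peroxide for 60 minutes to make it senescent, that is, stopped from dividing for good, and the untreated group received culture medium alone. Senescence was tested 5 days later, and the labels do not say when RNA was taken. Both groups are the same cell line with no genetic change named, so they stand for a single tumour line and not for liver tissue.

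Purine rings are built in a chain of steps on phosphoribosyl pyrophosphate, ending in inosine monophosphate, from which adenine and guanine nucleotides branch. Pyrimidine rings are made as orotate and then joined to the sugar, giving uridine and cytidine nucleotides. Ribonucleotide reductase turns both kinds into deoxynucleotides, thymidylate synthase makes the DNA base thymine, and salvage kinases and phosphoribosyltransferases reuse free nucleosides and bases. Cells in S phase need much more deoxynucleotide than resting cells, and the liver is a main site of purine synthesis.

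The arrays were comparable in scale, with medians of the log2 values between 6.87 and 6.92 in the H2O2 group and between 6.85 and 6.93 in the untreated group. CDKN1A, the cell cycle inhibitor p21, averaged 10.89 ± 0.072 in the H2O2 group and 8.53 ± 0.062 in the untreated group, and the proliferation marker MKI67 averaged 8.08 ± 0.18 in the H2O2 group and 9.40 ± 0.18 in the untreated group (log2 values, mean ± SD, n = 4 arrays each). All 9 measured hepatocyte markers lay above the array median on every array, as did 10400 of all 18404 genes. Of the 9 markers, 6 fell and 1 rose (66.7% and 11.1%, against 14.8% and 19.2% of all genes). Their mean level ran between 11.64 and 11.92 in the H2O2 arrays and between 12.10 and 12.15 in the untreated arrays. Of the markers of other cell types, 1 of 6 for fibroblasts, 3 of 5 for leukocytes and 1 of 6 for endothelium lay above the array median on every array. The mean level of the leukocyte list ran between 8.03 and 8.13 in the H2O2 arrays and between 7.93 and 7.97 in the untreated arrays. In this list 2 of 5 measured genes rose (40%, against 19.2% of all genes) and 0 fell. CD68 rose by 0.80 ± 0.071 and CD14 by 0.27 ± 0.064, both above the array median on every array. LYZ, also above it on every array, gave -0.068 ± 0.063. PTPRC and CD3E, below it on every array, gave -0.14 ± 0.076 and -0.11 ± 0.080. The mean level of the fibroblast list ran between 5.98 and 6.23 in the H2O2 arrays and between 6.17 and 6.27 in the untreated arrays. In it 1 gene was lower and 1 higher (16.7% each, near the 14.8% and 19.2% of all genes). The mean level of the endothelial list ran between 6.10 and 6.32 in the H2O2 arrays and between 6.15 and 6.29 in the untreated arrays. Here 1 gene was lower (16.7%, near the 14.8% of all genes) and 0 higher, with 1 at an unadjusted p under 0.05. The part of other cell types in the results below was not tested.

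The comparison asked how the expression of these enzymes differs between cells made senescent with H2O2 and untreated cells. Of the 30 measured enzymes 18 fell, 1 rose and 11 did not pass, at an adjusted p under 0.05 from limma across all genes. Over all 18404 genes 14.8% fell and 19.2% rose, so that 34% were called in either direction. At an adjusted p under 0.01, 13 enzymes fell, against 9.93% of all genes. The median log2 difference, H2O2 minus untreated, was -0.23 for the enzymes and -0.022 for all genes. The differences were moderate in size, from -0.95 for RRM2 to 0.46 for TK2, and 6 enzymes fell by 0.5 or more on the log2 scale, as did 4.83% of all genes, while 0 rose by as much, against 7.22% of all genes. In 12 enzymes every H2O2 array lay below every untreated array, as in 14.8% of all genes, and in 2, TK2 and IMPDH1, every H2O2 array lay above, as in 18.9% of all genes. All 30 enzymes lay above the array median on all 8 arrays, as did 10400 of all 18404 genes.

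**Figure D1:**
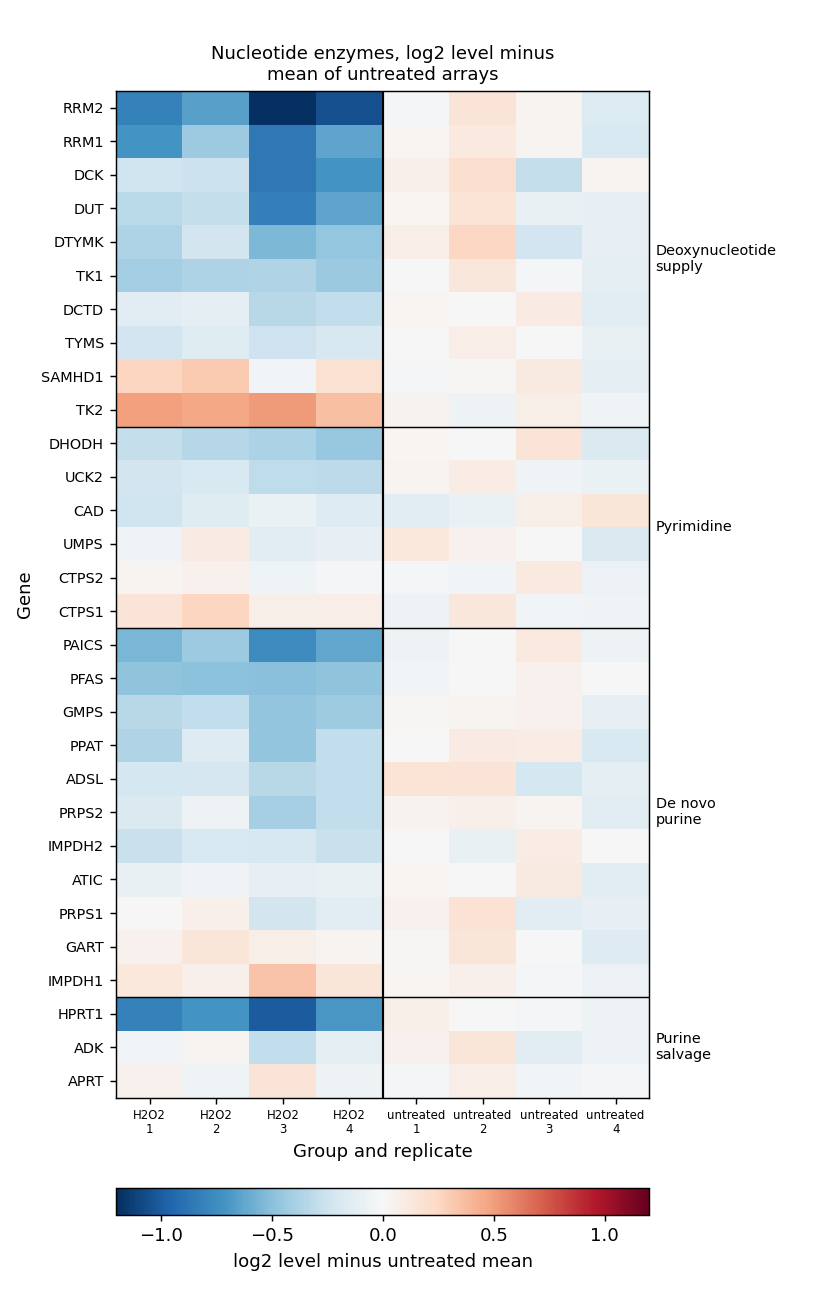
Log2 level of each of the 30 enzymes (rows, grouped by pathway step) on each array (columns, H2O2 on the left), minus that gene's mean over the untreated arrays; blue is lower and red is higher. RRM2, RRM1, PAICS and HPRT1 were lower on all 4 H2O2 arrays, and TK2 was higher on all 4.

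The H2O2 arrays did not move by equal amounts. The median over the 30 enzymes, taken against each gene's untreated mean, was -0.22, -0.15, -0.32 and -0.29 in H2O2 replicates 1 to 4, and 0.020, 0.070, 0.014 and -0.094 in untreated replicates 1 to 4. H2O2 replicate 3 held the lowest value of its group for 21 enzymes and H2O2 replicate 2 the highest for 21. In the untreated group, replicate 4 held the lowest value for 19. The same median over 16 proliferation markers was -0.89, -0.68, -1.05 and -1.08 in H2O2 replicates 1 to 4. The array with the smallest fall in the enzymes, H2O2 replicate 2, also had the smallest fall in those markers. The largest fall was in H2O2 replicate 3 for the enzymes and in H2O2 replicate 4 for the markers. Without both H2O2 replicate 3 and untreated replicate 4, a setting chosen after the data were seen, 16 enzymes fell and 2 rose. In these bulk samples, fewer dividing cells and less RNA per cell cannot be told apart. Of the proliferation markers 14 of 16 fell (87.5%, against 14.8% of all genes) and 0 rose (median -0.89), with 14 at an unadjusted p under 0.05. Their part in the enzymes' values was not tested.

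Enzymes of deoxynucleotide supply fell in 8 of 10 cases (80%, against 14.8% of all genes), TK2 rose and SAMHD1 did not pass. Their median log2 difference was -0.40. Ribonucleotide reductase, a complex of the large catalytic subunit RRM1 and a small radical-bearing subunit, led. RRM2, the small subunit made in S phase, had log2 values of 8.55, 8.70, 8.10 and 8.30 in H2O2 replicates 1 to 4, against 9.33, 9.52, 9.39 and 9.20 in untreated replicates 1 to 4. The groups did not overlap, and RRM2 was 1.93-fold lower (log2 difference -0.95 ± 0.12, SE; limma adjusted p = 2.22e-05). RRM1 had 9.11, 9.38, 8.97 and 9.19 in H2O2 replicates 1 to 4, against 9.85, 9.95, 9.86 and 9.64 in untreated replicates 1 to 4. It was 1.58-fold lower without overlap (-0.66 ± 0.093, adjusted p = 7.83e-05). The pair RRM2 and RRM1 was chosen after the values were seen, so no test is given for it. RRM2 minus RRM1 averaged -0.75 ± 0.16 in the H2O2 group and -0.47 ± 0.040 in the untreated group.

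RRM2B, an alternative small subunit that p53 induces after DNA damage, went the other way. It had log2 values of 10.35, 10.32, 10.30 and 10.43 in H2O2 replicates 1 to 4, against 8.75, 8.83, 8.88 and 8.92 in untreated replicates 1 to 4, a 2.84-fold rise (log2 difference 1.51 ± 0.067, adjusted p = 1.37e-09). On each array the value of RRM2 minus that of RRM2B was taken, so that anything shared by the whole array drops out. This difference averaged -1.94 ± 0.28 in the H2O2 group and 0.51 ± 0.17 in the untreated group. The response of RRM2 minus that of RRM2B was thus -2.45 log2 units (two-sided exact permutation p = 0.0286, the smallest the 70 arrangements allow, adjusted p = 0.040 over 7 paralog pairs). Of these 7 pairs, described with their enzymes below, 5 differed at an adjusted p under 0.05. With any 1 of the 4 H2O2 replicates left out, 0 of 7 passed, although the response of RRM2 minus RRM2B stayed between -2.56 and -2.37. Its exact permutation p was then 0.0286, the smallest that 35 arrangements allow, which adjustment over the 7 pairs turned into 0.050 to 0.0667.

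**Figure D2:**
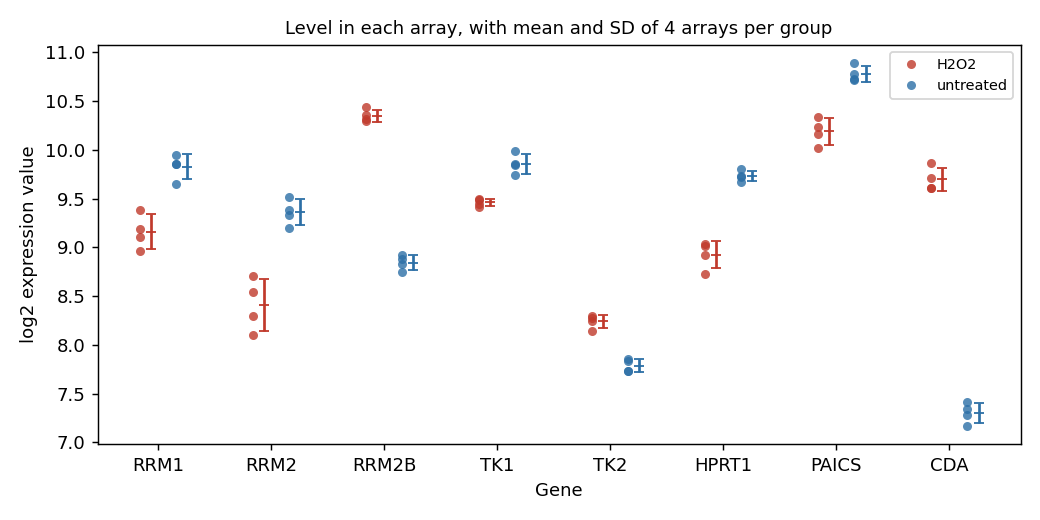
Log2 expression value of 8 genes in each array (points), with the mean and SD of the 4 arrays per group beside them, H2O2 left of untreated; heights are to be compared within a gene only. The groups of RRM1, RRM2, TK1, HPRT1 and PAICS lie lower under H2O2 without overlap, and those of RRM2B, TK2 and CDA lie higher.

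Thymidylate is made from deoxyuridylate by TYMS, with DUT and DCTD providing that substrate and DTYMK carrying the product on to the diphosphate. DUT, the dUTPase that keeps uracil out of DNA, had 7.57, 7.61, 7.07 and 7.27 in H2O2 replicates 1 to 4, against 7.92, 8.06, 7.80 and 7.80 in untreated replicates 1 to 4. Its groups did not overlap (-0.52 ± 0.11, adjusted p = 0.00242). DTYMK, thymidylate kinase, fell by 0.40 ± 0.10 (adjusted p = 0.0074), with its highest H2O2 array, at 8.63, above its lowest untreated array, at 8.62. TYMS had 10.38, 10.46, 10.36 and 10.42 in H2O2 replicates 1 to 4, against 10.61, 10.69, 10.61 and 10.52 in untreated replicates 1 to 4. Its fall of 0.20 ± 0.065 passed (adjusted p = 0.0259), but not without H2O2 replicate 1 or 4 or untreated replicate 1 or 2 (adjusted p up to 0.0822). DCTD, which deaminates deoxycytidylate, fell by 0.22 ± 0.076 (adjusted p = 0.0385), a call lost without H2O2 replicate 3 or 4 or untreated replicate 1, 2 or 3 (adjusted p up to 0.112) and with arrays centred on their median (0.0582).

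Promoters of TYMS, DUT, RRM2 and TK1, which fell, and of TK2, which rose, are shown as examples picked with these values known. The sequences are the 250 bases before a RefSeq transcript start (assembly GRCh38.p14), 5′ to 3′ on the gene's strand, in lower case, with capitals for matches to motifs bound by E2F factors (TTTCCCGC, TTTCGCGC, TTTGCCGC or TTTGGCGC) and by NF-Y (CCAAT), or to the E-box CACGTG, on either strand. For genes with several starts, the window with the most matches is given. RRM2 lies at chr2:10122489-10122738 (plus strand), TYMS at chr18:657403-657652 (plus), DUT at chr15:48331947-48332196 (plus), TK1 at chr17:78187053-78187302 (minus) and TK2 at chr16:66550123-66550372 (minus).
RRM2: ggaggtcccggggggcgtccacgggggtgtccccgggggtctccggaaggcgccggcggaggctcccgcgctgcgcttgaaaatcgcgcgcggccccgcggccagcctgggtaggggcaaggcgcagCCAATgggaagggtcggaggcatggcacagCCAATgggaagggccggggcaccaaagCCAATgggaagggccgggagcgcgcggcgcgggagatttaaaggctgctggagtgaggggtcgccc
TYMS: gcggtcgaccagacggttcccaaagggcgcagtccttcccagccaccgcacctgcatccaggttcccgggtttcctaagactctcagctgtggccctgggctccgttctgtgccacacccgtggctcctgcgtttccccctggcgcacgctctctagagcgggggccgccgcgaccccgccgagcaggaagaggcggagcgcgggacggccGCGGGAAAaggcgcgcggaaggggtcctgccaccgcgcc
DUT: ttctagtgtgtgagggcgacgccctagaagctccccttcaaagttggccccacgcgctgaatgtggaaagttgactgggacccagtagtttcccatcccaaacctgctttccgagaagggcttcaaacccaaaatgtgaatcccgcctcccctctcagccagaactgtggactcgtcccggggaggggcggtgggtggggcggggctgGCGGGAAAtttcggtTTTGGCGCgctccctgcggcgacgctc
TK1: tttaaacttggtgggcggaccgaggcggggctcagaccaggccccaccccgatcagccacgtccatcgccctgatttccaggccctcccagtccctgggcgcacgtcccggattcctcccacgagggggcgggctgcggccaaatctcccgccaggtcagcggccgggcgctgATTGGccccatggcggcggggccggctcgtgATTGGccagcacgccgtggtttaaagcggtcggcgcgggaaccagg
TK2: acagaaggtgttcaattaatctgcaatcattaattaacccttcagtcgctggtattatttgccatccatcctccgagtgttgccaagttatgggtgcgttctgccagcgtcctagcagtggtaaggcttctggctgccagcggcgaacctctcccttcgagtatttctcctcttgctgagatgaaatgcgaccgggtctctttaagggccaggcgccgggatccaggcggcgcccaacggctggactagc
RRM2 held 3 CCAAT boxes in a row, the first bases of which lie at -123, -93 and -66 from the start. TYMS held an E2F-type octamer at -39, DUT held octamers at -42 and -27, TK1 held inverted CCAAT boxes at -77 and -46, and the TK2 window had 0 matches.

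Windows of 300 bases, reaching 50 bases past the start, were available for 29 of the 31 listed genes. An E2F-type octamer was present in 5 of these 29 genes (17.2%), against 3.99% of all 27305 genes with a window, and in 3.31% of all 35116 windows. The 5 were TYMS, DUT, DCK and PRPS2, which fell, and GART, which did not pass. CACGTG was present in 6 of 29 (20.7%), against 8.77% of all genes and 7.26% of all windows. The matches of PPAT and PAICS are the same site, counted for both genes here and among the enzymes that fell. CCAAT was present in 12 of 29 (41.4%), against 39.7% of all genes and 34.6% of all windows. Among the enzymes that fell, 16 had a window, of which 4 held an octamer, 4 held CACGTG and 6 held CCAAT. Among the enzymes that did not pass, 11 had a window, of which 1 held an octamer, 1 held CACGTG and 5 held CCAAT. Of the deoxynucleotide genes not printed above, RRM1, DTYMK and DCK fell and held matches, while DCTD fell and held none. SAMHD1, which did not pass, held CCAAT boxes at -49 and -38. Matches to different motifs overlapped in 0 cases. The 27305 genes include ones not measured on these arrays and were not matched to the enzymes in expression level. A match describes letters and not binding.

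Salvage kinases return free deoxynucleosides to the nucleotide pool, in the cytosol and in mitochondria. TK1, the cytosolic thymidine kinase of S phase, had 9.44, 9.49, 9.49 and 9.41 in H2O2 replicates 1 to 4, against 9.86, 9.99, 9.84 and 9.74 in untreated replicates 1 to 4. It fell by 0.40 ± 0.069 (adjusted p = 0.000478). TK2, its mitochondrial counterpart, had 8.28, 8.25, 8.30 and 8.14 in H2O2 replicates 1 to 4, against 7.83, 7.73, 7.86 and 7.73 in untreated replicates 1 to 4. It was the single enzyme of the list to rise (0.46 ± 0.067, adjusted p = 0.000107), and every H2O2 array lay above every untreated array. TK1 minus TK2 averaged 1.22 ± 0.045 in the H2O2 group and 2.07 ± 0.13 in the untreated group, so that the response of TK1 lay 0.85 log2 units below that of TK2 (exact permutation p = 0.0286, adjusted p = 0.040).

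DCK, the deoxycytidine kinase of the cytosol and nucleus, varied most among the H2O2 arrays. Its values were 8.92, 8.90, 8.31 and 8.45 in H2O2 replicates 1 to 4, against 9.23, 9.36, 8.88 and 9.20 in untreated replicates 1 to 4. It fell by 0.52 ± 0.14 (adjusted p = 0.00973), with H2O2 replicates 1 and 2 just above untreated replicate 3, and did not pass without both H2O2 replicate 3 and untreated replicate 4 (-0.40, adjusted p = 0.0574). DGUOK, the mitochondrial deoxyguanosine kinase, gave 0.11 ± 0.076 (adjusted p = 0.30), and the response of DCK lay 0.63 log2 units below its own (exact permutation p = 0.0286, adjusted p = 0.040). SAMHD1, which breaks down deoxynucleoside triphosphates, had 9.75, 9.80, 9.45 and 9.67 in H2O2 replicates 1 to 4, against 9.47, 9.50, 9.59 and 9.37 in untreated replicates 1 to 4. Its difference of 0.18 ± 0.084 did not pass (adjusted p = 0.116). Without H2O2 replicate 3, the lowest of its group, SAMHD1 passed at 0.25 (adjusted p = 0.0158).

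**Figure D3:**
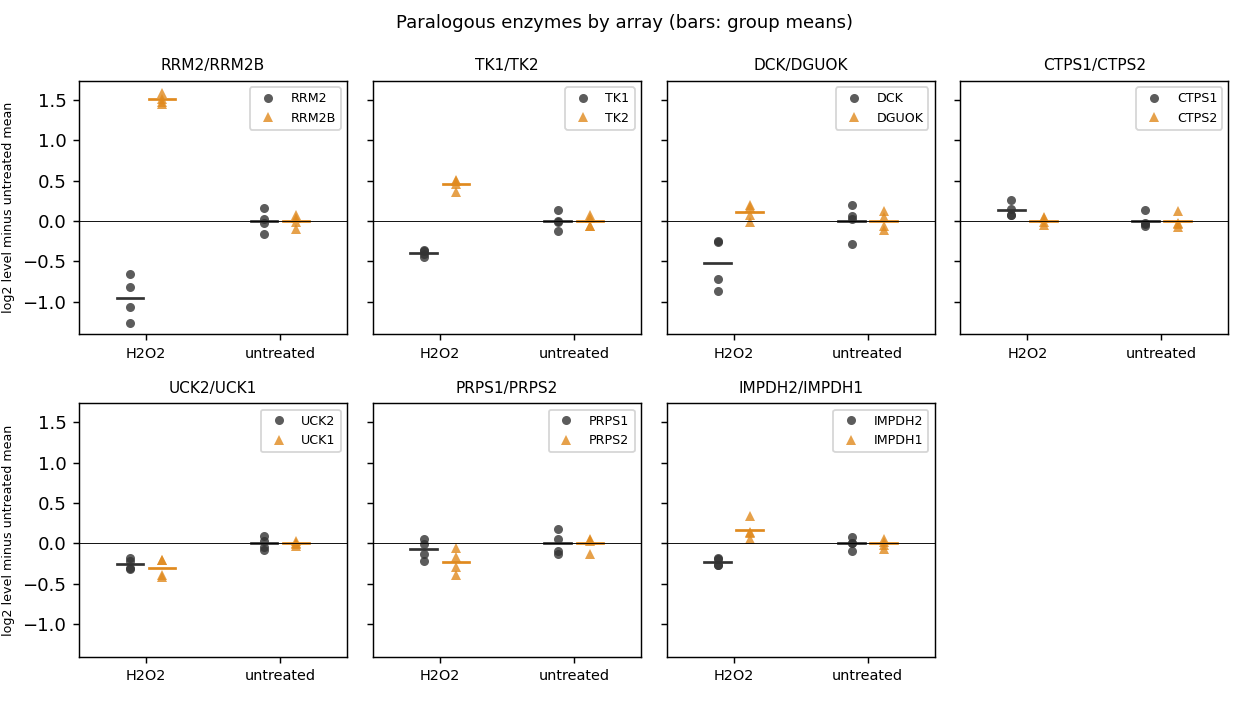
Log2 level on each array minus the gene's own untreated mean, for 7 pairs of related enzymes; circles are the first gene and triangles the other gene of each pair, bars are group means of 4 arrays, H2O2 left of untreated. RRM2 and RRM2B part the most (a difference of -2.45), and UCK2 and UCK1 the least.

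Of 6 enzymes of pyrimidine synthesis and salvage 2 fell (33.3%, against 14.8% of all genes) and 0 rose. Their median was -0.10, with 2 at an unadjusted p under 0.05. Called in either direction were 33.3%, near the 34% of all genes. DHODH, the mitochondrial enzyme that oxidises dihydroorotate, had 7.86, 7.80, 7.77 and 7.69 in H2O2 replicates 1 to 4, against 8.17, 8.15, 8.30 and 7.97 in untreated replicates 1 to 4. The groups did not overlap, and it fell by 0.36 ± 0.078 (adjusted p = 0.00219). UCK2, the uridine and cytidine kinase of salvage, fell by 0.26 ± 0.068 (adjusted p = 0.00946). CAD, which carries the opening steps of the pathway, gave -0.15 ± 0.076 (95% interval -0.32 to 0.010, adjusted p = 0.145). UMPS, which completes uridylate, gave -0.046 ± 0.080 (95% interval -0.22 to 0.13). The CTP synthases CTPS1 and CTPS2 gave 0.14 ± 0.072 (95% interval -0.016 to 0.29) and 0.0049 ± 0.067 (95% interval -0.14 to 0.15), and the sign of CTPS2 turned under quantile normalization and when any 1 of 5 arrays was left out. Their responses differed by 0.13 (exact permutation p = 0.114, adjusted p = 0.133), a difference that passed without untreated replicate 2 (0.19, adjusted p = 0.0333). UCK1, the other uridine and cytidine kinase, fell by 0.30 ± 0.071, and the responses of UCK2 and UCK1 differed by 0.049 (exact permutation p = 0.314, adjusted p = 0.314).

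Of the 11 enzymes of de novo purine synthesis 7 fell (63.6%, against 14.8% of all genes) and 0 rose. Their median was -0.23, with 8 at an unadjusted p under 0.05. The count of those that fell was 4 without H2O2 replicate 1 and 4 without H2O2 replicate 4. The enzymes are given roughly in the order in which they act, except that GMPS comes before IMPDH1 and IMPDH2. PRPS1 and PRPS2 make phosphoribosyl pyrophosphate. PRPS2 fell by 0.23 ± 0.082 (adjusted p = 0.0437), a call lost without H2O2 replicate 1, 3 or 4 or untreated replicate 1, 2 or 3 (adjusted p up to 0.116) and with arrays centred on their median (0.0606). PRPS1 gave -0.074 ± 0.086 (95% interval -0.26 to 0.11), and the response of PRPS1 lay 0.16 log2 units above that of PRPS2 (exact permutation p = 0.0286, adjusted p = 0.040), but p = 0.0571 when any 1 of the 4 H2O2 replicates was left out.

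PPAT, which commits the chain to purines, had 9.01, 9.21, 8.89 and 9.07 in H2O2 replicates 1 to 4, against 9.36, 9.46, 9.46 and 9.18 in untreated replicates 1 to 4. It fell by 0.32 ± 0.085 (adjusted p = 0.00989), with H2O2 replicate 2 above untreated replicate 4. GART, which catalyses several of the early steps, gave 0.074 ± 0.074 (95% interval -0.085 to 0.23). PFAS, which adds a nitrogen from glutamine to the growing ring, had 8.55, 8.55, 8.54 and 8.55 in H2O2 replicates 1 to 4, against 9.00, 9.03, 9.08 and 9.03 in untreated replicates 1 to 4. Its groups were the tightest of the list under H2O2, with an SD of 0.0082, and it fell by 0.49 ± 0.060 (adjusted p = 2.11e-05).

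PAICS, which extends the ring intermediate, fell most among the 11 enzymes of de novo purine synthesis. It had 10.23, 10.34, 10.02 and 10.16 in H2O2 replicates 1 to 4, against 10.72, 10.78, 10.89 and 10.72 in untreated replicates 1 to 4. It was 1.51-fold lower without overlap (-0.59 ± 0.079, adjusted p = 4.77e-05). PAICS and PPAT are neighbours on chromosome 4 that are read away from each other, and the 136 bases between a RefSeq start of each are shown because both genes fell (chr4:56435616-56435751, GRCh38.p14, plus strand, which is the strand of PAICS, with 0 matches to the motifs above).
PPAT-PAICS: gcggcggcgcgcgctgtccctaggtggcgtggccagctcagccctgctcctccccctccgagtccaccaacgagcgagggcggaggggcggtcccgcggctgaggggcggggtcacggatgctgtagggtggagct
A single CACGTG lies in both genes' windows, at bases 41 to 46 of PAICS, which are bases -182 to -177 from the start of PPAT.

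The last steps follow. ADSL, which splits off fumarate in this chain and in adenylate synthesis, had 9.67, 9.68, 9.55 and 9.59 in H2O2 replicates 1 to 4, against 10.05, 10.04, 9.67 and 9.78 in untreated replicates 1 to 4. Its fall of 0.26 ± 0.089 passed (adjusted p = 0.0381), but not without H2O2 replicate 1, 3 or 4 or untreated replicate 1 or 2 (adjusted p up to 0.130). ATIC, which completes inosine monophosphate, gave -0.077 ± 0.068 (95% interval -0.22 to 0.071). On the guanine branch, GMPS, which aminates xanthylate, had 10.48, 10.52, 10.35 and 10.39 in H2O2 replicates 1 to 4, against 10.83, 10.85, 10.87 and 10.72 in untreated replicates 1 to 4. The groups did not overlap, and GMPS fell by 0.38 ± 0.068 (adjusted p = 0.000535).

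IMPDH2 and IMPDH1 catalyse the step before GMPS, IMPDH2 being the form raised in dividing cells. IMPDH2 fell by 0.23 ± 0.065 (adjusted p = 0.0159), but not without H2O2 replicate 1 or 4 (adjusted p up to 0.0521). IMPDH1 had 8.41, 8.34, 8.62 and 8.43 in H2O2 replicates 1 to 4, against 8.30, 8.34, 8.27 and 8.22 in untreated replicates 1 to 4, and gave 0.17 ± 0.073 (adjusted p = 0.100), the closest arrays of the groups being equal to 2 decimals. IMPDH2 minus IMPDH1 averaged 1.59 ± 0.12 in the H2O2 group and 1.98 ± 0.11 in the untreated group. The response of IMPDH2 lay 0.39 log2 units below that of IMPDH1 (exact permutation p = 0.0286, adjusted p = 0.040). Without H2O2 replicate 3 the difference in response was -0.35, with an exact permutation p of 0.0571.

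Among the 3 measured purine salvage enzymes HPRT1 fell (33.3%, against 14.8% of all genes), while APRT and ADK did not pass. Called in either direction were 33.3%, near the 34% of all genes. HPRT1, which turns hypoxanthine and guanine back into nucleotides, had 8.92, 9.01, 8.73 and 9.03 in H2O2 replicates 1 to 4, against 9.80, 9.74, 9.72 and 9.67 in untreated replicates 1 to 4. It was 1.75-fold lower without overlap (-0.81 ± 0.077, adjusted p = 2.25e-06), after RRM2 the largest fall of the list. APRT, the matching enzyme for adenine, gave 0.023 ± 0.070 (95% interval -0.13 to 0.17), and its sign turned without H2O2 replicate 3. ADK, adenosine kinase, gave -0.10 ± 0.086 (95% interval -0.29 to 0.082). RefSeq names pseudogenes of 9 of the 30 enzymes, among them HPRT1 (3), PAICS (7), DUT (8), RRM2 (3) and IMPDH1 (11), and whether their probe sets also take up RNA from such copies was not tested.

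**Figure D4:**
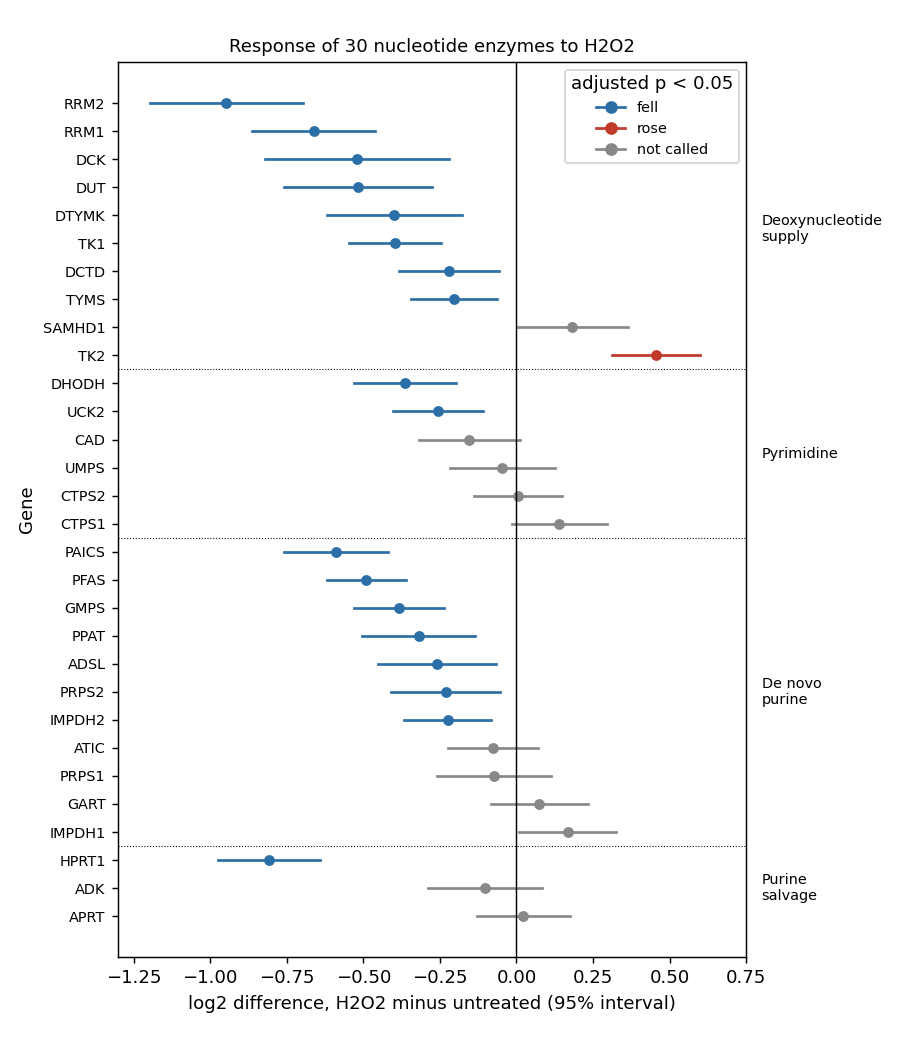
Log2 difference, H2O2 minus untreated, of each of the 30 enzymes (points) with its unadjusted 95% interval from limma (lines), grouped by pathway step; colour gives the call at an adjusted p under 0.05. The points run between -0.95 for RRM2 and 0.46 for TK2, and 18 are coloured as lower.

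Other genes of nucleotide metabolism, outside the list of 31, had a median log2 difference of -0.025. Of 72 measured 18 fell (25%, against 14.8% of all genes) and 15 rose (20.8%, near the 19.2% of all genes). Those for folate and carbon-unit supply, which feeds thymidylate and purine synthesis, fell in 7 of 14 cases (50%, against 14.8% of all genes) and rose in 0. Their median was -0.26, with 8 at an unadjusted p under 0.05. SHMT2, the mitochondrial serine hydroxymethyltransferase, had 10.88, 10.89, 10.86 and 10.80 in H2O2 replicates 1 to 4, against 11.64, 11.59, 11.64 and 11.51 in untreated replicates 1 to 4, a fall of 0.74 ± 0.063 (adjusted p = 8.84e-07). The mitochondrial MTHFD2 fell by 0.67 ± 0.085, and the cytosolic SHMT1 by 0.51 ± 0.100.

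Among other genes of deoxynucleotide supply and breakdown 2 of 11 rose and 1 fell (18.2% and 9.09%, no more than the 19.2% and 14.8% of all genes). CDA, which deaminates cytidine and deoxycytidine, had 9.86, 9.61, 9.71 and 9.61 in H2O2 replicates 1 to 4, against 7.17, 7.28, 7.34 and 7.42 in untreated replicates 1 to 4. It was 5.27-fold higher (2.40 ± 0.079, adjusted p = 1.01e-10), the largest difference among all 102 nucleotide genes measured, and RRM2B was the next. NUDT1, which clears oxidised purine deoxynucleotides, fell by 0.20 ± 0.072 (adjusted p = 0.0437), a call lost without H2O2 replicate 2, 3 or 4 or untreated replicate 1, 2 or 4 (adjusted p up to 0.131).

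Genes of purine conversion and breakdown rose in 9 of 21 cases (42.9%, against 19.2% of all genes). They fell in 3 (14.3%, near the 14.8% of all genes). Their median was 0.18, opposite in sign to that of de novo synthesis. LACC1, a purine nucleoside enzyme, rose by 1.08 ± 0.12, the guanine deaminase GDA by 0.94 ± 0.091 and the AMP deaminase AMPD3 by 0.92 ± 0.078. In the untreated group the mean levels of these 3 genes, at 5.66, 6.08 and 6.68, lay below the array medians, which limits how exactly their rise is known. LACC1 averaged 6.74 in the H2O2 group and lay above the array median on 1 array only. AK4, a mitochondrial adenylate kinase, fell by 0.72 ± 0.070, and ADSS1, an adenylosuccinate synthase, by 0.71 ± 0.12. PRPSAP1, a partner of phosphoribosyl pyrophosphate synthetase, fell by 0.54 ± 0.065. Of 11 genes of pyrimidine conversion and breakdown 2 fell (18.2%, near the 14.8% of all genes) and 0 rose, with 2 at an unadjusted p under 0.05. They were UCK1 and DPYD, the enzyme that opens uracil and thymine breakdown, which fell by 0.73 ± 0.067 and lay above the array median on 1 array only.

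**Figure D5:**
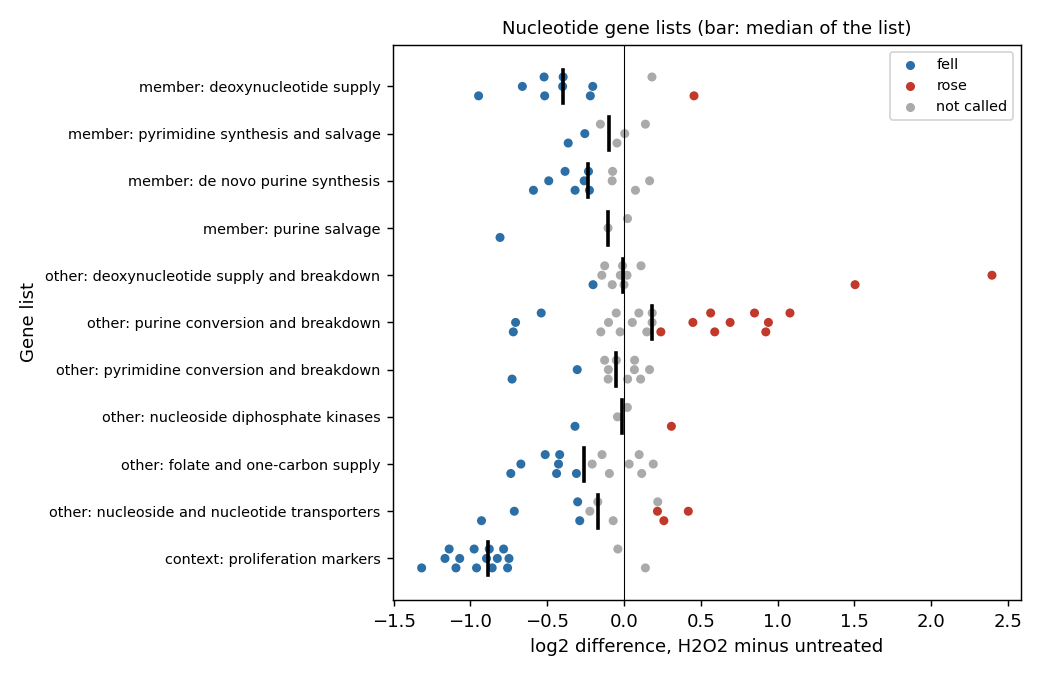
Log2 difference, H2O2 minus untreated, of each measured gene (points, coloured by call) in the 4 pathway steps of the list, in 6 lists of other nucleotide genes and in proliferation markers; the bar is the list's median. The median is -0.40 for deoxynucleotide supply, 0.18 for purine conversion and breakdown and -0.89 for the proliferation markers.

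The remaining lists were small. Of 4 other nucleoside diphosphate kinases, which even out the triphosphate pools, 1 fell and 1 rose (25% each, against 14.8% and 19.2% of all genes). The mitochondrial NME4 fell by 0.32 ± 0.063 and NME6 rose by 0.31 ± 0.073. Among 11 nucleoside and nucleotide transporters 4 fell and 3 rose (36.4% and 27.3%, against 14.8% and 19.2% of all genes). SLC29A4, a transporter of monoamines and adenosine, fell by 0.93 ± 0.12, and the mitochondrial pyrimidine nucleotide carriers SLC25A36 and SLC25A33 fell by 0.71 ± 0.069 and 0.30 ± 0.079. ABCC5, an exporter of cyclic nucleotides, rose by 0.42 ± 0.073, the lysosomal nucleoside transporter SLC29A3 by 0.26 ± 0.061 and the plasma membrane transporter SLC29A1 by 0.22 ± 0.063, the last a call lost without H2O2 replicate 1 or untreated replicate 1 (adjusted p up to 0.0599).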

How the data were processed

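Total RNA of 8 HepG2 cultures was amplified, turned into sense cDNA, labelled with biotin and hybridised to single-channel whole-transcript arrays, per the labels' protocols. The authors deposited log2 expression values per probe set; their summarization and normalization are not given in the sources used here. Limma is listed, without its use, in the submitters' processing notes. For arrays, their number limits the precision.

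Of 32321 probe sets 19158 carry 1 gene symbol in the platform annotation, 1388 several and 11775 none; 19128 identifiers matched RefSeq (GRCh38.p14), which changed 0 symbols. The 19158 gave 18404 genes; the probe set with the highest mean was taken for 637 genes with several, none of them among the 30 enzymes. Pairs of arrays shared at most 0.00619% identical values. Coordinates are those of RefSeq promoter sequences, since the probe sets come with no build.

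All adjusted p-values not named as exact come from limma (3.58.1, R 4.3.3) on all genes, with 1 mean per group, empirical Bayes moderation and Benjamini-Hochberg adjustment. Differences are H2O2 minus untreated with SE, levels are means with SD, and n = 4 arrays per group. Paralogs were compared by the log2 difference within each array, with a two-sided exact permutation test over 70 arrangements. The scripts were tested on simulated data. Python 3.11.15, pandas 2.3.3 and matplotlib 3.10.9 served for sequences and figures.

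Named genes are all members, their paralogs, CDKN1A, MKI67 and, of each other list, at most 3 called rises and 3 called falls, taken by size. The leukocyte genes PTPRC, CD14, CD68, LYZ and CD3E, the genes of the closing observations and the pair RRM2 and RRM1 were chosen after values were seen. The same holds for the printed promoters. PAICS and PPAT were also compared as a pair chosen that way, and the result is not given here. The members and lists were chosen with earlier results of these data known. Replicate numbers were not treated as pairs: same-numbered arrays' deviations from their group means correlated at -0.25 to 0.094. Alternatives were a replicate block, quantile normalization, median centring, leaving out dim genes, averaging probe sets, trended robust moderation, an adjusted p under 0.01, a log2 difference of at least 0.5, and leaving out each array.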

Additional observations from a re-analysis of the deposited data

Results flagged for a closer look

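Among 55 genes, 110 groups of 4 arrays were checked for an array far from the other 3 (by the gap to its neighbour over the group's range, Dixon's 95% limit), which chance flags in about 1 in 20 groups, and 6 were found. PRPS2 was at 9.08 in untreated replicate 4, below the 9.25 to 9.28 of the others. ADSS1 was at 7.61 in H2O2 replicate 3, above the 7.37 to 7.40 of the others, and at 7.69 in untreated replicate 2, below the 8.29 to 8.31 of the others. AMPD3 was at 6.87 in untreated replicate 3, above the 6.60 to 6.64 of the others. DPYD was at 6.98 in untreated replicate 3, above the 6.80 to 6.81 of the others. SLC29A3 was at 9.31 in untreated replicate 1, below the 9.39 to 9.40 of the others.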

How the results depend on the processing

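Of the 19 called enzymes, 13 kept direction and call in all settings tried other than the adjusted p under 0.01 and the log2 difference of at least 0.5; the exceptions were TYMS, DCTD, DCK, PRPS2, ADSL and IMPDH2, none of which changed direction. The number of enzymes that fell was 16 to 18 under the other fits and scalings and 13 to 18 with each array left out, against 18. Requiring a log2 difference of at least 0.5 left 6 enzymes lower and 0 higher (4 lower and 0 higher for deoxynucleotide supply, 0 lower for pyrimidine synthesis and 1 lower for purine synthesis) and 9 lower and 9 higher among the other nucleotide genes. At an adjusted p under 0.01, 13 enzymes and 4 of purine synthesis were lower, against 9.93% of all genes. With each array left out, purine synthesis held 4 to 7 lower enzymes, and enzymes higher, all of deoxynucleotide supply, numbered 1 to 2, with 2 also without both H2O2 replicate 3 and untreated replicate 4. Under that setting APRT gave -0.031, and with each array left out -0.022 to 0.052. CTPS2 gave -0.0069 after quantile normalization and -0.018 to 0.045 with each array left out. With the replicate number as a block 16 enzymes fell, TYMS and DCTD being lost, and 1 rose, and with arrays centred on their median 16 fell, DCTD and PRPS2 being lost; for the paralog pairs 0 of 7 passed under that block, where the smallest possible p is 0.125. With each array left out, 0 to 6 paralog pairs passed, against 5, with 0 for each H2O2 replicate and 5 to 6 for each untreated one; all 5 kept their direction. Signal over background was not analysed here, which limits the exactness of differences in dim genes.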

Other observations

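Further genes of purine conversion and breakdown, named after their values were seen, were higher in H2O2 cells. PNP, the purine nucleoside phosphorylase that frees hypoxanthine and guanine, the substrates of HPRT1, had log2 values of 9.78, 9.80, 9.71 and 9.76 in H2O2 replicates 1 to 4, against 8.95, 9.17, 8.68 and 8.85 in untreated replicates 1 to 4, a rise of 0.85 ± 0.091 (limma adjusted p = 6.74e-06). ITPA, which clears inosine triphosphate, rose by 0.56 ± 0.061, and ADA, adenosine deaminase, by 0.45 ± 0.061. NT5E, the surface nucleotidase CD73, rose by 0.69 ± 0.099, and AK1, a cytosolic adenylate kinase, by 0.59 ± 0.076.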
